A study of Homo sapiens with 23 samples.

Results

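These data compare 2 kinds of multiple myeloma line, cultured malignant plasma cells, at baseline: lines with high FGFR3, H929 and OPM2, against lines with high MAF, MM1S and RPMI-8226. Members were the RNA sequencing libraries that carried the guide RNA named EV in the labels, 11 of the 23 libraries of the series. H929 and OPM2 each had 3 EV libraries (6 in all), against 2 in MM1S (replicates 2 and 3) and 3 in RPMI-8226 (5 in all). All cells, EV and IRF4 guide alike, received doxycycline for 48 hours, which induced the guide. The labels do not spell out EV or say whether the replicates were separate cultures. P-values between lines therefore measured only the spread between these libraries, which may be technical. The other 12 libraries, 3 per line, carried a guide against IRF4, a transcription factor of plasma cells, and served here as libraries that the choice of genes did not use. IRF4 in them averaged 748 CPM in H929, 1089 in OPM2, 263 in MM1S and 212 in RPMI-8226, against 2146, 1628, 664 and 443 CPM in the EV libraries of the same lines. CPM is the usual unit of counts scaled to a library's total, here with edgeR's TMM factors. The factors were computed apart for each guide, so CPM of EV and IRF4-guide libraries are not on exactly the same scale.

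As background, a translocation between chromosomes 4 and 14 in myeloma places FGFR3, a receptor tyrosine kinase for fibroblast growth factors, and NSD2, a histone H3 lysine methyltransferase, near immunoglobulin enhancers. Another set of translocations activates MAF, a basic leucine zipper transcription factor, and MAF tumours are known for high CCND2, ITGB7 and ARID5A. NSD2 is known in myeloma for genome-wide H3K36 dimethylation, and FGFR3 for signalling through the ERK kinases, with sprouty and DUSP proteins as feedback inhibitors. The labels do not state which translocation a line carries.

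A gene was said to separate the subgroups when it was called in all 4 line pairs (H929 with MM1S, H929 with RPMI-8226, OPM2 with MM1S, OPM2 with RPMI-8226) by edgeR's quasi-likelihood test at a Benjamini-Hochberg adjusted p under 0.05, in the same direction and at least 2-fold in each. Log2 differences are FGFR3 lines minus MAF lines, with each line weighted equally. The 4 pairs share lines, so they are not 4 independent comparisons. With 2 lines on each side, the subgroup and any other trait that H929 and OPM2 share cannot be told apart.

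The genes that name the subgroups are given as a description, without a test. FGFR3 (chromosome 4, 1793293 to 1808867 on GRCh38) had 144, 128 and 174 CPM in H929 and 1960, 2306 and 2333 CPM in OPM2, against 0.992 and 1.19 CPM in MM1S and 1.76, 1.94 and 3.74 CPM in RPMI-8226. Both FGFR3 lines were far above both MAF lines, and OPM2 was in turn far above H929. MAF (chromosome 16, 79202622 to 79600737) had 179, 161 and 181 CPM in H929 and 70.2, 68.0 and 69.6 CPM in OPM2, against 615 and 543 CPM in MM1S and 1299, 1295 and 1374 CPM in RPMI-8226. MAF was lower in FGFR3 lines but was not silent there: H929 and MM1S, the closest pair, differed 3.28-fold. FGFR3 was thus nearly off in MAF lines, and MAF was present in all 4 lines at unequal level. These levels name the subgroups, so they are no check of them.

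**Figure D1:**
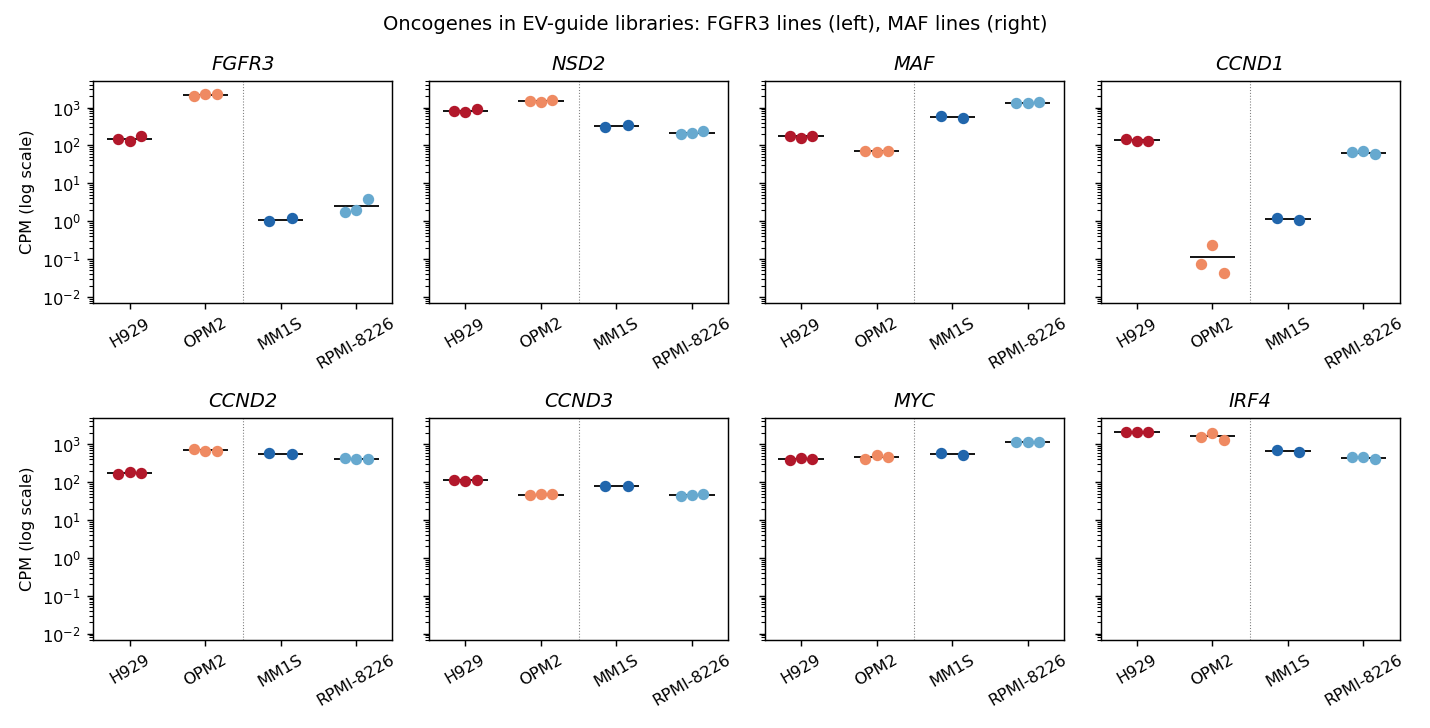
CPM (log axis) of 8 myeloma oncogenes in each EV library (points) with line means (bars), FGFR3 lines left of the dotted line and MAF lines right of it. FGFR3 in MAF lines is at most 3.74 CPM, while MAF reaches 161 to 181 CPM in H929.

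NSD2 followed FGFR3, with smaller ratios. It had 824, 768 and 902 CPM in H929 and 1454, 1430 and 1566 CPM in OPM2, against 309 and 336 CPM in MM1S and 206, 208 and 236 CPM in RPMI-8226. The groups did not overlap, and the mean difference was 2.07 ± 0.06 on the log2 scale (SE, adjusted p = 7.7e-19, edgeR's quasi-likelihood test). The line pairs ran from 1.37 to 2.78. This SE and p measure the spread between libraries of a line, not between lines. MAFA, a paralog of MAF, was under the filter on low counts, with line means of 0.0283 to 0.308 CPM.

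None of the 3 D-type cyclins, which drive entry into S phase, separated the subgroups. CCND1 averaged 135 ± 12 CPM in H929 and 0.117 ± 0.101 in OPM2, against 1.14 ± 0.08 in MM1S and 64.9 ± 6.1 in RPMI-8226 (SD, n = 3, 3, 2 and 3), so each subgroup held a line with CCND1 and a line nearly without it. CCND2 averaged 174 CPM in H929 and 695 in OPM2, against 566 in MM1S and 408 in RPMI-8226: OPM2 was above both MAF lines. CCND3 averaged 112 CPM in H929 and 47.1 in OPM2, against 77.5 in MM1S and 46.3 in RPMI-8226. MYC averaged 411 CPM in H929 and 465 in OPM2, against 553 in MM1S and 1131 in RPMI-8226, and was called lower in all 4 pairs, but under 2-fold between MM1S and either FGFR3 line. MYCL did separate, lower in FGFR3 lines, at 6.04 and 1.06 CPM in H929 and OPM2 against 16.2 and 13.9 CPM in MM1S and RPMI-8226.

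IRF4 and XBP1 were both higher in FGFR3 lines. IRF4 had 2137, 2143 and 2157 CPM in H929 and 1577, 1985 and 1322 CPM in OPM2, against 705 and 622 CPM in MM1S and 470, 448 and 410 CPM in RPMI-8226. Every FGFR3-line library was above every MAF-line library, with a mean log2 difference of 1.78 ± 0.09 (SE, adjusted p = 7.3e-12, edgeR). XBP1, the transcription factor of the secretory programme of plasma cells, had 3285, 3230 and 3326 CPM in H929 and 1964, 2127 and 2046 CPM in OPM2, against 572 and 541 CPM in MM1S and 438, 394 and 407 CPM in RPMI-8226. Its mean log2 difference was 2.43 ± 0.05 (adjusted p = 4.4e-21, edgeR). For both genes the SE and p measure the spread between libraries, not between lines. XBP1 is named because it separated the subgroups in these same libraries, so its p adds no support.

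Of 28395 genes in the count table, 15380 passed the filter on low counts. Among them 457 separated the subgroups as higher in FGFR3 lines (2.97% of genes tested) and 641 as lower (4.17%), 7.14% in all. Across the 457, 210 were under 1 CPM in both MAF lines, and across the 641, 380 were under 1 CPM in both FGFR3 lines. In 34 and 54 of these genes the lower subgroup had no count at all, so that they passed the filter through the other subgroup alone. Genes with only a few counts there, such as SYK, passed it in the same way and were not counted. Just inside the 2-fold threshold the closest pair differed by 1.001 for a higher gene and 1.007 for a lower gene on the log2 scale (sizes without sign), and just outside it by 0.9987 and 0.9977. Without any minimum fold, 1435 genes were higher (9.33%) and 1420 lower (9.23%) in all 4 pairs, 18.6% together.

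Genes that separated the subgroups were a small share of the genes that differed between any pair of lines. At 2-fold or more, H929 and MM1S differed in 5479 genes (35.6%), H929 and RPMI-8226 in 6663 (43.3%), OPM2 and MM1S in 5251 (34.1%) and OPM2 and RPMI-8226 in 6431 (41.8%). Within the subgroups, H929 and OPM2 differed in 5311 genes (34.5%) and MM1S and RPMI-8226 in 6059 (39.4%). The lines within a subgroup thus differed in about as many genes as lines from different subgroups. Pearson correlations across genes of log2 CPM were 0.802 to 0.870 between libraries of different lines in 1 subgroup (median 0.863, 15 pairs) and 0.780 to 0.839 between subgroups (median 0.790, 30 pairs). The 15 pairs cover 2 pairs of lines only, and genes are not independent replicates.

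**Figure D2:**
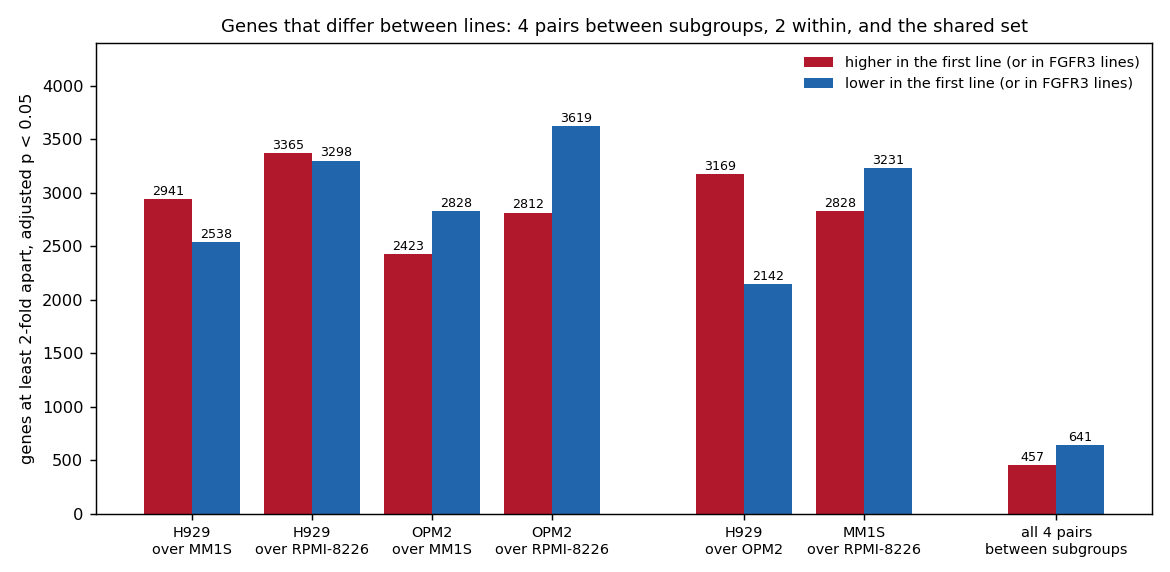
Number of genes at least 2-fold apart and called at adjusted p under 0.05, higher (red) and lower (blue) in the first line, for the 4 pairs between subgroups, the 2 pairs within them and the genes shared by all 4 pairs. The shared set of 457 and 641 genes is far smaller than any single pair.

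With the line as the replicate, 2 lines against 2, no gene was called: edgeR's quasi-likelihood test on counts summed per line gave 0 of 14790 genes at an adjusted p under 0.05, with 0.223 as the smallest. At an unadjusted p under 0.05 it gave 957 genes, 432 higher in FGFR3 lines (2.92%) and 525 lower (3.55%), 6.47% of genes tested in all. DESeq2 on the same sums called 200 higher and 384 lower at an adjusted p under 0.05, and limma on the deposited log2 RPKM values (a unit scaled by gene length and depth) called 0 higher and 4 lower, LAPTM5, IGLV2-34, IGLV2-23 and IGLV2-14. For a single value, an exact permutation test over 2 against 2 lines cannot go below p = 0.333. The separating genes below therefore describe these 4 lines. The 5 genes with the smallest unadjusted p in each direction were SLC47A1, FAM30A, EVL, RTL6 and MAGEA3 as higher and TNFRSF13B, LAPTM5, MAPK13, IGLV2-23 and SGCE as lower.

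The largest separating genes were ordered by their closest line pair, taken from the counts summed over a line's EV libraries, with lines under 3 counts raised to 3. A ratio to a line at 0 counts is given as a lower bound from that floor of 3, and one to a line with 1 to 3 counts with its 95% interval (Clopper-Pearson). Both cover counting error only.

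FAM30A, a long noncoding RNA gene beside the immunoglobulin heavy chain locus, came first among the higher genes. It had 116, 109 and 151 CPM in H929 and 213, 183 and 196 CPM in OPM2, against 0 and 0 CPM in MM1S and 0, 0.0761 and 0.220 CPM in RPMI-8226, at least 828-fold higher in H929 than in MM1S. ANOS1, which encodes the extracellular matrix protein anosmin, had 29.9, 24.1 and 30.2 CPM in H929 and 62.4, 63.2 and 65.2 CPM in OPM2, against 0 counts in all 5 libraries of both MAF lines, at least 188-fold higher in the closest pair. SLC47A1, a membrane transporter of organic cations, averaged 88.1 ± 4.2 CPM in H929 and 51.2 ± 1.2 in OPM2, against 0.153 ± 0.064 in MM1S and 0.144 ± 0.127 in RPMI-8226 (SD). RFLNB, RTL6, PRTFDC1 and PPM1E were under 1 CPM in both MAF lines and between 7.74 and 274 CPM in FGFR3 lines. DCC and GABRA3 are known mainly from neurons. DCC, the netrin receptor, averaged 18.5 and 67.9 CPM in H929 and OPM2, against 0.0541 and 0.189 CPM in MM1S and RPMI-8226. GABRA3, a GABA receptor subunit, averaged 12.1 and 25.6 CPM, against 0.266 and 0.0134 CPM. EVL, a regulator of actin filaments and outside the 15 but among the smallest p with lines as replicates, had 46.8, 45.9 and 48.8 CPM in H929 and 49.7, 46.7 and 53.0 CPM in OPM2, against 0.893 and 1.41 CPM in MM1S and 1.44, 1.26 and 1.54 CPM in RPMI-8226, so that it was nearly level within each subgroup.

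Of these 15, 4 were the cancer-testis antigens MAGEA3, MAGEC1, MAGEA6 and CTAG1A, proteins normally made in germ cells and re-expressed in tumours, where DNA demethylation of their promoters is a known route. Of 17 tested members of the cancer-testis list (20 in all), 7 were higher in FGFR3 lines, 0 lower and 10 neither, against 2.97% and 4.17% of all genes. The median of their mean log2 differences was 4.54 (lines raised to 3 counts), against -0.00754 over all genes tested. MAGEA3 had 196, 194 and 171 CPM in H929 and 232, 237 and 205 CPM in OPM2, against 0.0992 and 0 CPM in MM1S and 0.401, 0.381 and 0.220 CPM in RPMI-8226, 509-fold in the closest pair. MAGEC1 had 265, 299 and 288 CPM in H929 and 394, 464 and 380 CPM in OPM2, against 0 and 0 CPM in MM1S and 0.681, 0.723 and 1.32 CPM in RPMI-8226. Both genes were on in all 6 FGFR3-line libraries and at most near 1 CPM in MAF lines. MAGEA4 averaged 505 and 156 CPM in H929 and OPM2, against 0.104 and 4.85 CPM in MM1S and RPMI-8226. Not all members did this. MAGEA1 averaged 210 and 204 CPM against 105 and 39.0 CPM, and was present in every line. SSX1 and MAGEB2 were high in H929 alone, at 146 and 115 CPM there and 0.143 and 0.117 CPM in OPM2, against at most 0.982 CPM in either MAF line.

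MAGEA3 and MAGEA6 are close copies, and their promoters are shown because both genes separated together. These are the 250 bases before and 50 after each gene's start from RefSeq (GRCh38.p14), 5′ to 3′ on the strand of the gene, with CG dinucleotides, the sites of DNA methylation, in capitals. MAGEA3 lies at chrX:152698544-152698843 on the plus strand and MAGEA6 at chrX:152769640-152769939 on the minus strand.
MAGEA3: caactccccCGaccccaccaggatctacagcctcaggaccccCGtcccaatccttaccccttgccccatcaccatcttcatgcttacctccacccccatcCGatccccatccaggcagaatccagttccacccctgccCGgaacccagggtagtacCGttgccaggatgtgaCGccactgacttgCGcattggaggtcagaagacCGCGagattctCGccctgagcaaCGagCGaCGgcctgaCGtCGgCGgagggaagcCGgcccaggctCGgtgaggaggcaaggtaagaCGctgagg
MAGEA6: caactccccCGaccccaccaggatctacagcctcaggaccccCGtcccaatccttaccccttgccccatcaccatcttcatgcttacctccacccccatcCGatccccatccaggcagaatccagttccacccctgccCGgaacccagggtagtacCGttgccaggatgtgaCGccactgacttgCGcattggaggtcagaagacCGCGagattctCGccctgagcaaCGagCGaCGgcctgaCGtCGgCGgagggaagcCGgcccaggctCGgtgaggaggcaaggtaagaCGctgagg
The sequences were identical over all 300 bases and held 19 CG dinucleotides each, against a median of 14 over the promoters of the table. Values of MAGEA3, MAGEA6, MAGEA2 and MAGEA2B, and of CTAG1A and CTAG1B, are uncertain one against the other, since the counting could split reads between near-identical copies. Methylation was not measured in the files used here.

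**Figure D3:**
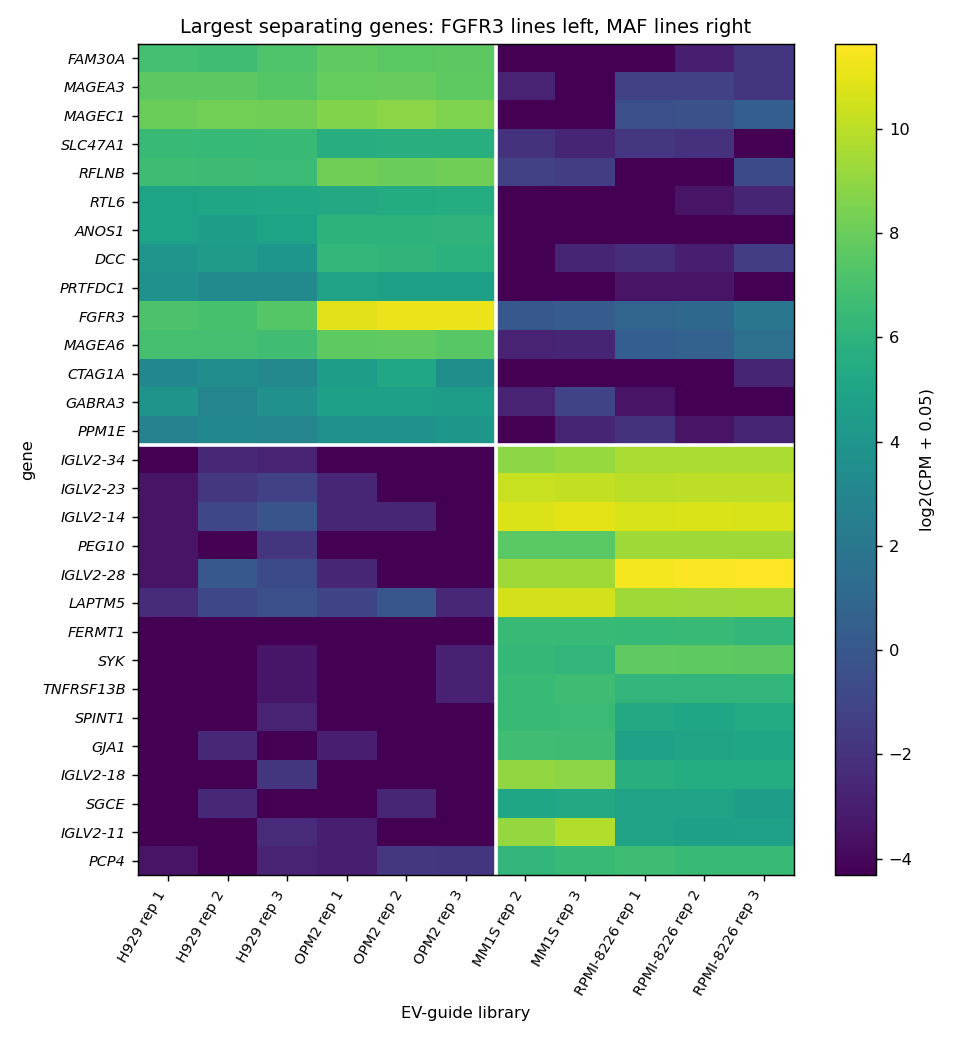
Log2 of CPM plus 0.05 in each EV library for 14 of the 15 higher (top) and the 15 lower (bottom) separating genes with the widest closest pair, FGFR3 lines left and MAF lines right of the white line. Values change at the line between the subgroups in every row, and replicates of a line look alike.

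Among the lower genes, the widest gaps belonged to immunoglobulin lambda variable genes of 1 family. IGLV2-23 had 0.0391, 0.241 and 0.366 CPM in H929 and 0.112, 0 and 0 CPM in OPM2, against 1236 and 1128 CPM in MM1S and 990, 1056 and 1041 CPM in RPMI-8226. IGLV2-14, IGLV2-34, IGLV2-28, IGLV2-18 and IGLV2-11 had the same order, from 28.2 to 2949 CPM in MAF lines and under 1 CPM in FGFR3 lines. A clonal plasma cell uses a single rearranged variable gene, and reads of one can be counted to its relatives, so these 6 are not 6 separate findings. The constant genes differed from line to line: IGKC averaged 6899 CPM in H929, IGLC3 4136 CPM in OPM2, and IGLC2 3718 CPM in RPMI-8226, and in MM1S IGKC, IGLC2 and IGLC3 averaged 0.320, 34.6 and 9.92 CPM. IGHG2, IGHG3 and IGHG4, heavy chain constant genes, were lower in FGFR3 lines, 3 of 13 tested immunoglobulin genes, with 0 counts in H929 and at most 0.332 CPM in OPM2, against 2.90 to 260 CPM in MAF lines. IGHG1 did not separate: OPM2 was below MM1S (log2 difference -3.72) but above RPMI-8226 (2.88). The caveat on reads counted to relatives holds for these genes too.

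LAPTM5, a lysosomal membrane protein that lowers antigen receptor levels, had 0.156, 0.483 and 0.686 CPM in H929 and 0.410, 0.927 and 0.132 CPM in OPM2, against 1550 and 1498 CPM in MM1S and 666, 637 and 656 CPM in RPMI-8226. The closest pair differed 1578-fold. SYK, the kinase that relays B cell receptor signals, had 1 count over 3 libraries in H929 and 2 counts over 3 libraries in OPM2, against 80.2 and 71.2 CPM in MM1S and 212, 206 and 196 CPM in RPMI-8226. With both FGFR3 lines raised to 3 counts, its closest pair differed 1409-fold. On unraised counts its ratio between MM1S and H929 was 4228 (95% interval 758 to 167119), lower in H929. This is not its smallest unraised ratio, since SYK averaged 0.0294 CPM in OPM2 and 0.0153 CPM in H929. TNFRSF13B, the receptor TACI for the survival factors BAFF and APRIL, likewise had 1 and 2 counts in H929 and OPM2, against 87.5 and 103 CPM in MM1S and 72.9, 73.6 and 72.2 CPM in RPMI-8226. MAPK13, a p38 kinase, averaged 0.728 and 0.976 CPM in H929 and OPM2, against 104 and 100.4 CPM in MM1S and RPMI-8226.

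PEG10 and SGCE, neighbouring imprinted genes on chromosome 7, separated together. PEG10 had 0.0391, 0 and 0.229 CPM in H929 and 0 counts in OPM2, against 184 and 187 CPM in MM1S and 659, 644 and 657 CPM in RPMI-8226. SGCE had 0, 0.121 and 0 CPM in H929 and 0, 0.116 and 0 CPM in OPM2, against 33.6 and 38.7 CPM in MM1S and 28.6, 29.0 and 24.6 CPM in RPMI-8226. Both were on in every MAF-line library and almost without reads in every FGFR3-line library. FERMT1, an integrin activator of epithelia, had 0 counts in all 6 FGFR3-line libraries, against 87.0 and 87.0 CPM in MM1S and 81.8, 84.5 and 75.9 CPM in RPMI-8226, at least 1525-fold lower in FGFR3 lines in the closest pair. SPINT1, a protease inhibitor of epithelia, averaged 0.0305 and 0 CPM in H929 and OPM2, against 90.1 and 39.3 CPM in MM1S and RPMI-8226. GJA1, the gap junction protein connexin 43, averaged 0.0402 and 0.0249 CPM, against 104 and 30.9 CPM. PCP4, a calmodulin-binding peptide, averaged 0.0435 and 0.176 CPM in the FGFR3 lines, against 80.4 and 93.9 CPM in the MAF lines.

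Lists of genes tied to each oncogene did not all follow it. Beside the counts of this and the next lists, 2.97% of all genes tested were higher in FGFR3 lines and 4.17% lower. Of 6 genes on the FGFR3 and NSD2 list, FGFR3, NSD2 and CDH2 (N-cadherin) were higher and SERPINE2, a protease inhibitor, lower, with DSG2 and MYRIP neither. CDH2 averaged 94.9 ± 3.7 CPM in H929 and 153 ± 6 in OPM2, against 39.7 ± 2.7 in MM1S and 38.9 ± 5.8 in RPMI-8226 (SD). DSG2, desmoglein 2, averaged 117 and 60.8 CPM, against 171 and 357 CPM, and was called lower in all 4 pairs, but under 2-fold between H929 and MM1S. SERPINE2 averaged 31.0 CPM in H929 and 0.645 CPM in OPM2, against 78.2 and 70.9 CPM in the MAF lines. The members were drawn from knowledge of patient tumours.

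On the MAF list 3 of 12 were lower in FGFR3 lines, MAF itself, ARID5A and SPP1, 0 were higher, and 9 were neither. Without the fold minimum 4 were lower, with DEPTOR added, and 1 was higher, CCR1. Over all genes 9.23% were lower and 9.33% higher by that looser rule. ARID5A, an RNA-binding protein that stabilises transcripts, had 63.1, 70.5 and 60.4 CPM in H929 and 72.5, 70.9 and 55.6 CPM in OPM2, against 322 and 292 CPM in MM1S and 229, 231 and 217 CPM in RPMI-8226, a mean log2 difference of -2.01 ± 0.07 (SE, adjusted p = 9.0e-18, edgeR). Its 6 FGFR3-line values formed a narrow band below all 5 others. The SE and p cover the spread between libraries, not between lines. SPP1, osteopontin, was a gene of 1 line: it averaged 508 ± 57 CPM in RPMI-8226, against 0.374 ± 0.389 in MM1S, where 7 counts stood behind its value. It stopped separating without 1 library in 4 of 11 cases. ITGB7, the integrin of homing to bone marrow and gut, averaged 6504 CPM in H929 and 2401 in OPM2, against 10004 in MM1S and 3653 in RPMI-8226. CCR1 and NUAK1 differed by less than 2-fold in every pair, with line means of 416 and 370 CPM against 270 and 300 CPM for CCR1 and 62.3 and 54.3 CPM against 54.4 and 51.4 CPM for NUAK1. DEPTOR, an mTOR inhibitor, averaged 92.0 and 72.0 CPM against 422 and 138 CPM, SMARCA1 1.03 and 0.440 CPM against 0 and 1.18 CPM, RND3 21.4 and 0.0645 CPM against 1.21 and 47.7 CPM, NTRK2 0.407 and 5.45 CPM against 9.99 and 0.0894 CPM, and CX3CR1 0.226 and 8.30 CPM against 0.785 and 1064 CPM. In each of these pairs of values H929 and OPM2 come first.

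Promoters were searched for the MAF half-site TGCTGAC and the AP-1 site TGACTCA on both strands. The motifs share the letters TGAC, and AP-1 proteins bind related sites. SPP1, on the MAF list and high in RPMI-8226 alone, and SPINT1, low in both FGFR3 lines, are shown. Each has a match across the start (capitals, read on the minus strand in SPP1). SPP1 lies at chr4:87975464-87975763 on the plus strand and SPINT1 at chr15:40843798-40844097 on the plus strand (RefSeq, GRCh38.p14).
SPP1: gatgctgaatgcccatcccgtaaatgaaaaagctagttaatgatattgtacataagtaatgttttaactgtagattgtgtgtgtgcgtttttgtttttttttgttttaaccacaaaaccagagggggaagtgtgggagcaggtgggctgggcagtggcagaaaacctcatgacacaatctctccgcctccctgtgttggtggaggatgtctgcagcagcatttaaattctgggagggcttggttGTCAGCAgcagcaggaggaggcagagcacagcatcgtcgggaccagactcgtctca
SPINT1: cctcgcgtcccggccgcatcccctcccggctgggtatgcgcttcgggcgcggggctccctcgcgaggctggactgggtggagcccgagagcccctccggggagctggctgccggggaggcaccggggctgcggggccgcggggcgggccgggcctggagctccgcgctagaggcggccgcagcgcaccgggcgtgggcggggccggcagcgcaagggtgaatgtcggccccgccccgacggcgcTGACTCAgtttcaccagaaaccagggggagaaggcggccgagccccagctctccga
The half-site begins 6 bases before the start of SPP1 and the AP-1 site 6 bases before that of SPINT1. Each match ends on the first base of the gene. Over the set, the half-site was in 16 of 323 promoters of genes higher in FGFR3 lines (4.95%) and in 17 of 467 of genes lower there (3.64%), against 3.39% of 11822 tested genes and 4.20% of 27305 promoters in the table. AP-1 was in 2.48% and 4.28%, against 3.21% and 4.92%. These shares lie near the background, and a match in this window is neither a binding site nor a cause.

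In the FGF receptor and ERK feedback list of 24 tested genes, SPRY2 alone was higher besides FGFR3, which names the subgroup, and 0 were lower, against 2.97% and 4.17% of all genes. SPRY2, a sprouty inhibitor, averaged 2.02 ± 0.14 CPM in H929 and 5.45 ± 0.30 in OPM2, against 0.735 ± 0.338 in MM1S and 0.118 ± 0.120 in RPMI-8226 (SD). Its separation was lost without MM1S replicate 2. DUSP4, an ERK phosphatase, was called higher in all 4 pairs but under 2-fold in one, at 227 and 586 CPM against 174 and 109 CPM. DUSP6 averaged 238 CPM in H929 and 38.3 CPM in OPM2, against 130 and 34.8 CPM in MM1S and RPMI-8226, with the line of lower FGFR3 the higher of the FGFR3 lines. SPRED1 and SPRED2, ERK inhibitors of the sprouty family, were called lower in all 4 pairs, also under 2-fold in some.

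Of 18 tested plasma cell identity genes, XBP1 and IRF4 separated as higher and 0 as lower. Without the fold minimum 7 were higher, PRDM1, XBP1, IRF4, SDC1, POU2AF1, JCHAIN and SSR4, and 0 lower, against 9.33% and 9.23% of all genes. PRDM1, the repressor BLIMP1 that fixes plasma cell fate, averaged 577 and 418 CPM in H929 and OPM2, against 239 and 96.1 CPM in MM1S and RPMI-8226. SDC1, the plasma cell surface marker CD138, averaged 589 and 1242 CPM against 483 and 410 CPM. CD38 averaged 85.8 and 24.1 CPM against 12.4 and 49.7 CPM, and TNFRSF17 (BCMA) 859 and 181 CPM against 181 and 61.3 CPM, neither of them separating. XBP1 was 1 of 22 unfolded protein response genes to separate, and 0 were lower.

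In the B cell list, CD79B, the antigen receptor signalling chain, was higher in FGFR3 lines and BCL6, CIITA, SPI1 and CR2 lower, of 13 tested. CD79B averaged 18.9 and 19.5 CPM in H929 and OPM2, against 3.73 and 0.0528 CPM in MM1S and RPMI-8226. CR2, the complement receptor CD21, averaged 1.22 and 1.77 CPM against 21.8 and 26.2 CPM. SPI1 averaged 3.49 and 0.0147 CPM against 10.98 and 46.5 CPM, and BCL6 0.405 and 0.164 CPM against 2.19 and 1.37 CPM.

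MHC class II genes, which present antigen to helper T cells, were lower in FGFR3 lines for 4 of 13 tested members and higher for 0, against 4.17% and 2.97% of all genes. Their median was -3.74 on the log2 scale (lines raised to 3 counts), against -0.00754 over all genes tested. CD74, the invariant chain, had 0, 0.241 and 0.549 CPM in H929 and 0.149, 0.116 and 0.0442 CPM in OPM2, against 2249 and 2348 CPM in MM1S and 64.6, 74.4 and 81.2 CPM in RPMI-8226. MM1S stood far above RPMI-8226. CIITA, the class II transactivator, averaged 1.98 and 1.94 CPM against 36.8 and 4.31 CPM, HLA-DRA 1.67 and 1.83 CPM against 647 and 6.97 CPM, and HLA-DMB 0.1001 and 0.0147 CPM against 15.5 and 1.13 CPM. The other class II chains were MM1S genes: HLA-DRB1 averaged 95.4 CPM in MM1S and 0.324 CPM in RPMI-8226, and HLA-DPA1 131 and 0.427 CPM. No member of the MHC class I presentation list (16 tested) separated in either direction.

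In the NF-kB list 6 of 24 tested genes were lower in FGFR3 lines, NFKBIE, BIRC3, CD40, TNFRSF13B, LTB and PLEK, and 0 higher, against 4.17% and 2.97% of all genes. Without the fold minimum 9 were lower and 0 higher, against 9.23% and 9.33% of all genes. The median of the list was -1.39, against -0.00754 over all genes tested. Summed over the list, MM1S stood apart at 2262 to 2300 CPM. RPMI-8226 had 761 to 783 CPM, H929 595 to 660 and OPM2 605 to 626. RELB, TRAF3 and BCL3 were among the members higher in both FGFR3 lines than in RPMI-8226. BIRC3, an inhibitor of apoptosis, averaged 2.66 and 0.638 CPM in H929 and OPM2, against 231 and 8.37 CPM in MM1S and RPMI-8226. PLEK, a membrane-binding protein of blood cells, averaged 0.297 and 0.596 CPM against 83.0 and 36.5 CPM. CD40, a TNF receptor family member of B cells, averaged 0.0153 and 0 CPM against 4.45 and 1.03 CPM. TNFAIP3, an NF-kB inhibitor and target, was high in MM1S alone: 12.2 and 20.7 CPM against 370 and 4.10 CPM. Of 26 interferon-stimulated genes, IFIT5, OAS3 and IFIH1 were lower and 0 higher. IFIH1, the RNA sensor MDA5, averaged 16.1 and 1.96 CPM against 82.2 and 43.4 CPM. IFIT5 averaged 0.498 and 1.68 CPM against 15.1 and 14.6 CPM, and OAS3 0.0696 and 0 CPM against 10.2 and 2.80 CPM.

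Among 15 BCL2 family members tested, BCL2L1, the pro-survival protein BCL-XL, was lower in FGFR3 lines and 0 were higher, a share near the 7.14% of all genes that separated. BCL2L1 had 53.6, 53.6 and 55.9 CPM in H929 and 33.4, 35.4 and 35.7 CPM in OPM2, against 267 and 265 CPM in MM1S and 151, 152 and 137 CPM in RPMI-8226, a mean log2 difference of -2.18 ± 0.05 (SE, adjusted p = 2.6e-20, edgeR). The 4 lines did not overlap. Here too the SE and p cover the spread between libraries, not between lines. BCL2L1 is named because it separated the subgroups in these same libraries, so its p and subgroup gap add no support. MCL1, the pro-survival member on which many plasma cells depend, averaged 1487 and 585 CPM against 561 and 297 CPM and did not separate. Of 17 tested surface targets of therapy, TNFRSF13B, CD74, CD86 and CD40 were lower and 0 higher. CD86, a costimulatory ligand, averaged 0.612 and 0.0746 CPM against 24.8 and 15.2 CPM.

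Among 24 tested adhesion and homing genes, CDH2 was higher, and CD9, ICAM3 and CCR2 lower, against 2.97% and 4.17% of all genes, a background that also holds for the lists that follow. CD9, a tetraspanin, averaged 0.362 and 0.120 CPM in H929 and OPM2, against 71.1 and 222 CPM in MM1S and RPMI-8226. ICAM3 averaged 11.2 and 24.1 CPM against 151 and 98.8 CPM, and CCR2, a chemokine receptor, 0.0261 and 0.123 CPM against 27.1 and 15.8 CPM. Among 18 cadherin and junction genes, CDH2 and JAM3 were higher and DSP, GJA1 and OCLN lower. DSP, desmoplakin, averaged 1.45 and 0.0249 CPM against 100.3 and 536 CPM. JAM3 averaged 34.8 and 12.3 CPM against 3.56 and 1.31 CPM, and OCLN, occludin, 0.163 and 0 CPM against 1.99 and 4.93 CPM. Of 27 cytokine receptor and signalling genes, IFNGR2 (4.78 and 11.9 CPM against 62.6 and 43.7 CPM) and STAT5A (0.0588 and 0.198 CPM against 2.71 and 5.42 CPM) were lower. Of 17 Wnt and bone disease genes, WNT10A (0.478 and 0.118 CPM against 127 and 3.04 CPM) and TCF7 (0.252 and 0.105 CPM against 1.72 and 0.986 CPM) were lower. In these lists 0 other members were higher.

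Some lists did not part the subgroups. None of 28 G1/S and DNA replication genes and none of 16 D cyclins, kinases and CDK inhibitors separated, against 2.97% of all genes higher and 4.17% lower. Without the fold minimum 3 (CDT1, GINS2 and GINS4) and 2 (CDK6 and CDKN2D) of them were called higher in all 4 pairs, against 9.33% of all genes. GINS4 was under 2-fold in every pair, and the others passed 2-fold in some pairs, such as CDT1 with log2 differences of 2.07 for H929 and 1.58 for OPM2 against MM1S. Of 21 enzymes of H3K36 methylation, polycomb and DNA methylation, NSD2 alone was higher and 0 were lower.

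Markers of cells that a myeloma culture should lack were checked. Summed T and NK cell markers were 215 to 269 CPM in H929 and 99.8 to 117 CPM in OPM2, against 8.33 to 8.43 CPM in MM1S and 392 to 453 CPM in RPMI-8226, and CD2 separated as lower among 11 tested. Summed myeloid markers were 25.8 to 33.4 and 6.80 to 10.97 CPM, against 18.9 to 24.6 and 74.9 to 81.2 CPM, and ITGAM separated as lower among 6 tested (0.0283 and 0 CPM against 1.47 and 0.966 CPM). CD2 was at 0.0130 and 0.0249 CPM against 0.320 and 0.793 CPM, and stopped separating without MM1S replicate 3 or OPM2 replicate 2. Stromal and epithelial markers (5 tested, summed 225.7 to 235.3 CPM in RPMI-8226 and at most 6.31 CPM in the other lines) and erythroid and megakaryocyte markers (4 tested, at most 5.61 CPM) held no separating gene. Between 3 and 8 markers of each list were at 0 counts in each line. Their part in the results was not tested.

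Position was not used to choose the genes. Around FGFR3, 32 tested genes lay within 1 Mb, and NSD2 (62.5 kb away) and SCARNA22, a small RNA gene inside it, were the 2 that separated, both as higher. SCARNA22 averaged 2.98 and 1.68 CPM in H929 and OPM2, against 0.207 and 0.102 CPM in MM1S and RPMI-8226. LETM1, between FGFR3 and NSD2, averaged 67.9 and 125 CPM against 128 and 101 CPM. Of 4 tested neighbours of MAF, CDYL2 (997.2 kb away) was higher, at 32.1 and 24.6 CPM against 10.3 and 8.07 CPM. Over all genes tested 7.14% separated, and the neighbourhoods of FGFR3 and MAF were not compared by a test.

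By chromosome, genes higher in FGFR3 lines made up 7.02% of tested genes on X (38 of 541) and 6.40% on 14 (32 of 500), against 2.97% over all. Genes lower in FGFR3 lines made up 9.41% on chromosome 21 (16 of 170) and 6.39% on 22 (26 of 407), against 4.17%. Those on 22 included immunoglobulin lambda variable genes such as IGLV2-34, IGLV2-33 and IGLV2-28, and those on X a 7-gene cancer-testis block. Reads of such relatives can be counted to one another, so the genes in these shares are not all separate findings. The median log2 difference of all tested genes was 0.58 on chromosome 14, 0.41 on 4, -0.49 on 21 and -0.37 on 7. Copy number was not measured in the files used here, and its part was not tested.

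**Figure D4:**
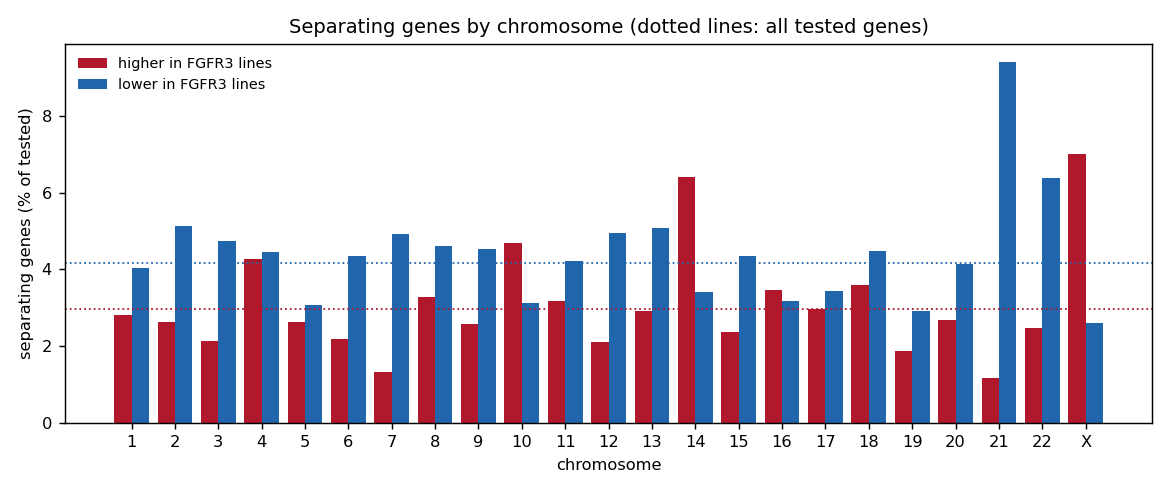
Separating genes as a percentage of tested genes on each chromosome, higher (red) and lower (blue) in FGFR3 lines, with dotted lines at 2.97% and 4.17% for all tested genes. X and 14 stand out for higher genes and 21 for lower genes.

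Runs of 3 or more neighbouring tested genes that separated the same way numbered 15 and held 56 genes, 5.14% of the separating genes with a position. The run with the most genes was the 7-gene cancer-testis block from MAGEA3 to MAGEA6 on X, over 70.9 kb, while others with fewer genes spanned up to 1547.2 kb. Next to MAGEA3 and MAGEA6 it held MAGEA12 (83.3 and 164 CPM in H929 and OPM2, against 0 and 5.40 CPM in MM1S and RPMI-8226), CSAG1, CSAG4, MAGEA2 and MAGEA2B. On chromosome 10, COMMD3 and BMI1 were higher: BMI1, a polycomb protein of self-renewal, averaged 46.2 and 83.8 CPM against 9.28 and 6.88 CPM. Another run on X held ARMCX5 (34.4 and 25.3 CPM against 0 and 0.645 CPM), GPRASP1 and BHLHB9. Among runs of lower genes was GAS6, the ligand of the AXL family of receptors, with its antisense and divergent transcripts, at 18.4 and 119 CPM against 527 and 500 CPM. Others held HOXB3, HOXB4 and HOXB6, with HOXB4 at 0 counts in both FGFR3 lines against 7.96 and 11.5 CPM, and PARP9, DTX3L and PARP14. The interferon-inducible GBP1, GBP2 and GBP4 formed a run on chromosome 1, with GBP4 at 0 counts in both FGFR3 lines against 3.08 and 6.09 CPM. The strand setting of the counting is not known here, so antisense partners such as GAS6-AS1 are uncertain.

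The separation was then looked for in the 12 IRF4-guide libraries of the same lines, fitted apart. They add libraries but no lines. There 686 genes separated as higher (4.39% of 15622 tested) and 584 as lower (3.74%). Of the genes higher at baseline, 326 of 451 tested separated again the same way (72.3%), and of the lower genes 425 of 636 (66.8%), with 0 in the opposite direction. By sign alone, 435 (96.5%) and 566 (89.0%) kept their direction in all 4 pairs, against 19.1% and 17.9% of all genes that were higher or lower in all 4 pairs. With lines raised to 3 counts, the median difference was 3.48 with the IRF4 guide against 3.13 with EV for higher genes and -3.56 against -4.07 for lower genes. Without that floor the medians were 3.76 against 3.94 for higher genes and -3.64 against -4.68 for lower genes. For higher genes the order of the guides thus depended on the floor. The genes were chosen by their EV values, which by itself favours wider differences with EV. Whether the guide had a part in these medians was not tested.

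**Figure D5:**
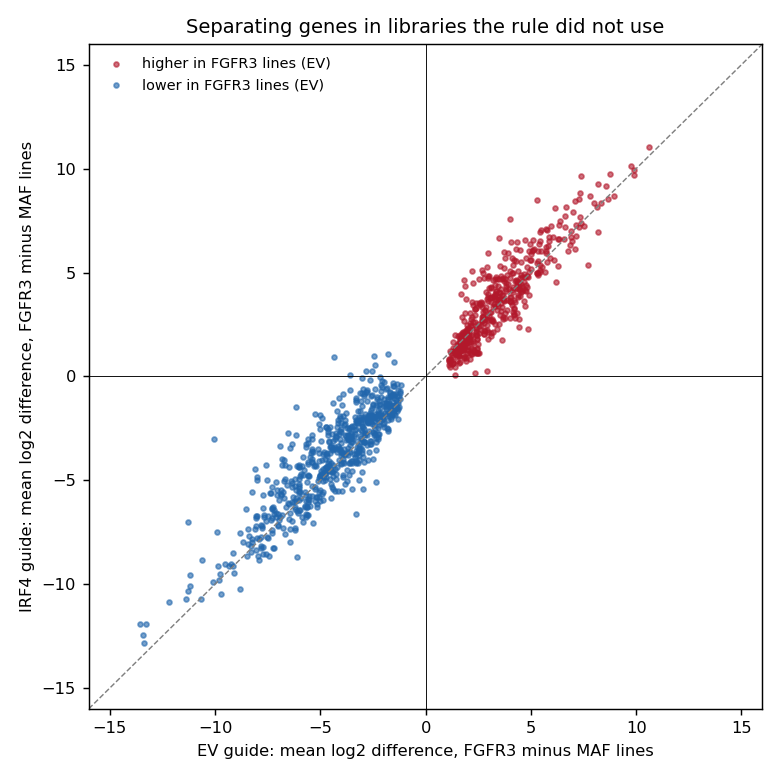
Mean log2 difference (FGFR3 minus MAF lines, lines raised to 3 counts) of the separating genes with the IRF4 guide (vertical) and the EV guide (horizontal), higher genes in red and lower genes in blue, with the line of equality dashed. Nearly all points keep their sign, and lower genes lie closer to 0 with the IRF4 guide, with a median of -3.56. The genes were chosen by their EV values, which by itself favours wider differences with EV.

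Genes that separated with both guides included FGFR3, NSD2, MAF, IRF4, ARID5A, FAM30A, MAGEA3, LAPTM5, SYK, FERMT1 and TNFRSF13B. XBP1, CDH2, BCL2L1, GJA1, IFIT5, IFIH1, SERPINE2, SPP1, BCL6, SPI1, CD86 and CD2 did not separate with the IRF4 guide. XBP1 averaged 2572 ± 180 CPM in H929 and 1178 ± 154 in OPM2, against 632 ± 39 in MM1S and 388 ± 32 in RPMI-8226 with that guide (SD, n = 3 each), where OPM2 and MM1S were closer than 2-fold. GJA1 averaged 0.269 and 4.30 CPM, against 177 CPM in MM1S and 0.376 CPM in RPMI-8226. SERPINE2 averaged 249 CPM in H929 and 1.48 CPM in OPM2 with that guide, against 60.9 and 132 CPM in MM1S and RPMI-8226. MYC, which did not separate with EV, did with the IRF4 guide, at 181 and 247 CPM in H929 and OPM2, against 755 and 605 CPM in MM1S and RPMI-8226.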

How the data were processed

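The libraries came from a TruSeq RNA kit, per the labels. For all 23 of them the authors deposited a table of raw counts by gene ID, and a file of log2 RPKM values each. Subread, featureCounts, limma and the build GRCh38 (hg38) are named in the submitters' processing notes, without versions or strand settings. EV libraries held 8390849 to 27485362 counts and IRF4-guide libraries 6907390 to 28486960, and their number and depth limit the precision of genes near 1 CPM. The 10 most abundant genes took 3.65 to 5.38% of an EV library, and genes without a symbol, which stayed in the fit, 0.110 to 0.210%. No EV library was a repeat of another of its line (chi-square per gene 3.61 to 19.2). The IRF4-guide libraries were not checked for this.

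In R 4.3.3, the EV counts were filtered (filterByExpr by line), scaled by TMM (0.933 to 1.08) and fitted with edgeR 4.0.16 (robust quasi-likelihood, 1 mean per line); the IRF4-guide counts were fitted apart by the same rule. A standard error is the size of the log2 difference over the square root of F. A fit of 4 sums, 1 per line, took the line as replicate. DESeq2 1.42.0 and limma 3.58.1 were alternatives, and the scripts were tested on simulated data. The deposited log2 values were used in the alternatives only.

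Positions, promoters and gene types came from RefSeq tables of GRCh38.p14 (99.2% of tested genes had a position). Of the 89 named genes 58 had a promoter in the table. The members, 26 gene lists and the rule for named genes were chosen with earlier results of these data known. Named were the subgroup oncogenes and their lists, the 15 widest separating genes in each direction by closest pair, up to 3 separating members per list and direction, separating genes within 1 Mb of FGFR3 or MAF, and the 5 smallest p in each direction with lines as replicates. List members that did not separate, chromosome runs and 4 further lists of the closing section were chosen after their values were seen. Some genes that the rule names are not reported here.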

Additional observations from a re-analysis of the deposited data

Results flagged for a closer look

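The mean distance between the subgroups changed with the IRF4 guide for NSD2, MYC, CCND2 and CCND3. For NSD2, MYC and CCND3, lines of the same subgroup moved in opposite directions, so these are not shifts of whole subgroups. This was tested in a single edgeR quasi-likelihood fit of all 23 libraries (16468 genes, of which 4282 were called), as the FGFR3 minus MAF difference with the IRF4 guide less that with the EV guide, on the log2 scale. CPM in this paragraph were scaled over all 23 libraries together, so they differ a little from those above. The MYC difference moved by -0.853 ± 0.102 (SE, adjusted p = 2.4e-07): MYC averaged 179 and 236 CPM in H929 and OPM2 against 758 and 601 CPM in MM1S and RPMI-8226 with the IRF4 guide, and 421 and 468 CPM against 569 and 1151 CPM with EV. The MAF difference moved by 0.491 ± 0.105, given without a p because the EV level of MAF names the subgroup. MAF averaged 1305 CPM in MM1S with the IRF4 guide and 595 CPM with EV, while it averaged 887 CPM in RPMI-8226 with the IRF4 guide and 1345 CPM with EV. The NSD2 difference moved by 0.480 ± 0.078 (adjusted p = 2.3e-05). NSD2 averaged 1146 and 1162 CPM in H929 and OPM2 against 198 and 199 CPM in MM1S and RPMI-8226 with the IRF4 guide. With EV it averaged 852 and 1491 CPM against 332 and 220 CPM, so H929 rose and OPM2 fell. The CCND2 difference moved by 0.546 ± 0.090 (adjusted p = 2.7e-05), and that of CCND3 by 0.441 ± 0.082 (adjusted p = 0.00012). CCND2 was lower with the IRF4 guide in every line, at 143 and 405 CPM against 244 and 218 CPM. With EV it had 178 and 698 CPM against 583 and 415 CPM. CCND3 had 79.6 and 76.7 CPM against 44.7 and 51.0 CPM with the IRF4 guide. With EV it had 115 and 47.3 CPM against 79.7 and 47.0 CPM. For IRF4 (0.11 ± 0.19, adjusted p = 0.77), CCND1 (adjusted p = 0.94) and MAFA (adjusted p = 0.65) no change passed the threshold. These p-values measure the spread between libraries of these 4 lines, not between lines.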

How the results depend on the processing

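The counts of separating genes in all 4 pairs (457 higher in FGFR3 lines, 641 lower) stayed within 1.5 times under relative log expression factors, no low-count filter, DESeq2, a fit of all 23 libraries and limma on the deposited log2 RPKM values (423 to 574 higher, 568 to 659 lower). Deviations from the line mean went weakly together in same-numbered libraries of different lines (median r = 0.049, 15 pairs, 2 above 0.1). In differently numbered ones the median r was -0.0271 (30 pairs, 0 above 0.1). A block for the replicate number gave 454 and 646. Leaving out 1 library gave 412 to 463 and 600 to 647. No minimum fold gave 1435 and 1420, and a 4-fold minimum 226 and 385. Leaving out a line, which leaves fewer pairs to pass, gave 1093 and 1554 without H929, 1475 and 1252 without OPM2, 1695 and 1971 without MM1S, and 1154 and 1429 without RPMI-8226. With lines as replicates, DESeq2 called 200 and 384 and limma on log2 RPKM 0 and 4; relative log expression factors, no filter (smallest adjusted p 0.0508) and each left-out library gave 0 and 0. Genes found again with the IRF4 guide were 751, 749 with relative log expression factors, 894 without a minimum fold, and 738 to 761 without 1 library.

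Of 74 named separating genes, CD2, SPP1 and SPRY2 stopped separating without 1 library, and SPP1 and SPRY2 also with limma on log2 RPKM. The mean log2 difference of some genes that did not separate turned round when a line was left out, as fewer lines enter it: without H929 CCND2 0.53 and CCND3 -0.35; without OPM2 CCND1 3.97, ITGB7 0.11, RND3 1.47 and NTRK2 -1.07; without MM1S ITGB7 0.14 and SMARCA1 -0.96; without RPMI-8226 CCND1 1.61, CCND3 -0.12, RND3 0.15, NTRK2 -2.70 and CX3CR1 0.77. Depth limits genes near 0 counts, above all in MM1S with 2 EV libraries.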

Other observations

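A wider set of epithelial genes than the marker and junction lists above was described. It and the next lists were chosen after their values were seen, so they are a description. Of 24 genes known from epithelia, 20 were tested, 12 were lower in FGFR3 lines, 0 were higher and 8 did not separate, where 4.17% of all genes were lower and 2.97% higher. Their median was -6.31 (lines raised to 3 counts), against -0.00754 over all genes tested. ESRP1, an epithelial splicing regulator, averaged 0.124 and 0 CPM in H929 and OPM2, against 9.24 and 32.9 CPM in MM1S and RPMI-8226. OVOL2, a transcription factor that holds the epithelial state, averaged 0 and 0.0124 CPM against 8.09 and 6.05 CPM, and the protease inhibitor SPINT2 0.649 and 0 CPM against 66.97 and 278 CPM. ST14, the protease matriptase that SPINT1 and SPINT2 inhibit, averaged 0.147 and 52.7 CPM against 304 and 539 CPM. The others that were lower were SPINT1, DSP, OCLN, MARVELD2, MARVELD3, KDF1, PATJ and GRB7. EPCAM and KRT18 were genes of RPMI-8226, at 114 and 110.3 CPM there, and did not separate. CDH1, E-cadherin, averaged at most 1.80 CPM in any line. All 12 separated again with the IRF4 guide.

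Of 10 tested mesenchymal genes, VIM, ZEB1, CDH2, NES and TNC were higher in FGFR3 lines and FN1 lower, against 2.97% and 4.17% of all genes. The transcription factors ZEB2, SNAI1, SNAI2 and TWIST1 did not separate, with line means of at most 4.18 CPM. That highest mean was of TWIST1 in MM1S, above its 2.00 and 3.86 CPM in H929 and OPM2 and 0.106 CPM in RPMI-8226. VIM, the intermediate filament vimentin, averaged 1702 and 1842 CPM in H929 and OPM2, against 269.7 and 109 CPM in MM1S and RPMI-8226. ZEB1, a repressor of epithelial genes, averaged 47.0 and 54.8 CPM against 10.96 and 21.9 CPM. NES, nestin, averaged 2174 CPM in H929 and 14.1 CPM in OPM2, against 1.58 and 0.905 CPM in the MAF lines. FN1, fibronectin, averaged 5.35 and 14.8 CPM against 35.8 CPM in MM1S and 3146 CPM in RPMI-8226. Of the 6 that separated, ZEB1, CDH2 and FN1 did not separate with the IRF4 guide.

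Of 15 tested receptors that sense microbes and their partners, the transcription factor IRF8 included, 8 were lower in FGFR3 lines, TLR5 was higher and 6 did not separate, against 4.17% of all genes lower and 2.97% higher. Those that did not separate included TLR3, TLR4, TLR7, TLR9 and CD180. Of the 8, NOD1 did not separate with the IRF4 guide. TLR6 averaged 0.0555 and 0 CPM in H929 and OPM2, against 13.03 and 25.9 CPM in MM1S and RPMI-8226. NOD2 averaged 0.0402 and 0 CPM against 22.4 and 3.72 CPM, and PYCARD, the inflammasome adaptor, had 0 counts in both FGFR3 lines against 8.60 and 12.2 CPM. LY86 had 0 counts in both against 5.75 and 20.8 CPM, and IRF8 averaged 0.0435 and 0.357 CPM against 11.7 and 63.5 CPM. TLR1, LY96 and NOD1 were also lower. MYD88, the shared adaptor, averaged 42.5 and 40.4 CPM against 49.4 and 47.8 CPM.

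Among 13 tested genes of B cell receptor signalling, SYK, BTK, BLNK and DAPP1 were lower in FGFR3 lines, CD79B was higher and 8 did not separate, against 4.17% of all genes lower and 2.97% higher. BLNK did not separate with the IRF4 guide. BTK averaged 0.864 and 0 CPM in H929 and OPM2, against 7.84 and 4.69 CPM in MM1S and RPMI-8226. BLNK averaged 0.555 and 9.56 CPM against 19.7 and 74.2 CPM. LYN, the kinase upstream of SYK, averaged 88.4 and 72.7 CPM against 54.9 and 17.9 CPM and did not separate.

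By gene type, 7.03% of 13553 tested protein-coding genes and 7.24% of 980 long noncoding RNA genes separated the subgroups in either direction, against 7.14% of all genes tested.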
